A study of Mus musculus with 4 samples.

Results

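Complement is a system of secreted proteins, receptors and inhibitors that tags cells and debris for removal. In the classical pathway the recognition molecule C1q, built from the products of C1qa, C1qb and C1qc, binds a surface and activates proteases that cleave C4 and C2, after which C3 is cleaved and deposited. The fragments C3a and C5a act through the receptors encoded by C3ar1 and C5ar1, Serping1 encodes the C1 inhibitor that blocks the first proteases, and Cd55 encodes decay-accelerating factor, a membrane protein that takes apart the convertases on host cells. In nervous tissue, C1q is known as a product of macrophages and microglia. The 9 genes described here, C1qa, C1qb, C1qc, C4b, C3, Serping1, C3ar1, C5ar1 and Cd55, were taken by their symbols from the 33456 genes listed in the count matrices, without use of their values, and all 9 had counts.

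Single cell RNA-seq of whole dorsal root ganglia (DRG) was performed on 4 droplet libraries. Control replicates 1 and 2 came from uninjured DRG, and injury replicates 1 and 2 from DRG taken 3 days after crush of the sciatic nerve. All mice were C57BL/6, aged 8 to 12 weeks, with no transgene or deletion named; the labels name the L4 ganglion, whereas the study's methods name L4 and L5. Ganglia of several mice were pooled in a library and dissociated cells were sorted as live, so each library is a pool and the number of mice does not enter the tests. Each captured RNA molecule counts as 1 unique molecular identifier (UMI) next to the 3′ end of its transcript, and a level is given as CPM, the UMIs of a gene scaled to a total of 1000000 UMIs in the cells named. Values over the 4 libraries are listed in the order control replicate 1, control replicate 2, injury replicate 1, injury replicate 2. Libraries held 1294 to 2509 barcodes and 5585909 to 11210875 UMIs.

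Of 6975 barcodes, 6153 were kept and 4791 were assigned to 1 of 18 cell types by lists of 10 marker genes (9 for the phagocyte classes), none of which held a complement gene of the set. A type name below stands for cells that resemble that type by these markers. In cells gated as macrophages the 9 macrophage markers summed to 7904 CPM, the monocyte markers to 420 CPM, the fibroblast markers to 306 CPM and the satellite glia markers to 107 CPM. In satellite glia their own markers summed to 18042 CPM, those of Scn7a glia to 715 CPM, those of fibroblasts to 367 CPM and those of macrophages to 14.0 CPM. The libraries differed in make-up within a condition. Satellite glia numbered 45, 339, 427 and 185, macrophages 229, 61, 462 and 181, pericytes 61, 3, 89 and 1, and T cells 59, 3, 8 and 0. Across libraries 20 barcode sequences occurred more than once, on 40 barcodes. Levels are given for 15 types with at least 10 cells in 2 or more libraries, and the libraries were compared in 6 types with at least 20 cells in each: macrophages, endothelial cells, Pi16 or Dpp4 fibroblasts, other fibroblasts, satellite glia and myelinating Schwann cells.

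The 3 C1q genes lie next to each other on the minus strand of mouse chromosome 4 (GRCm38), in the order C1qb (136880129 to 136886187), C1qc (136889804 to 136893065) and C1qa (136895917 to 136898803), within 18675 bases. C3 lies at 57203970 to 57228136 and C4b at 34728380 to 34743882 on chromosome 17, both on the minus strand. The 250 bases upstream of the RefSeq transcript start (GRCm38.p6) are shown for C1qb and C1qc, which had the same pattern over cell types, and for C3, which had another. C1qb is chr4:136886201-136886450, C1qc is chr4:136892915-136893164 and C3 is chr17:57228137-57228386, all read 5′ to 3′ on the minus strand. Capitals mark matches to any of 3 motifs, searched on both strands.
C1qb: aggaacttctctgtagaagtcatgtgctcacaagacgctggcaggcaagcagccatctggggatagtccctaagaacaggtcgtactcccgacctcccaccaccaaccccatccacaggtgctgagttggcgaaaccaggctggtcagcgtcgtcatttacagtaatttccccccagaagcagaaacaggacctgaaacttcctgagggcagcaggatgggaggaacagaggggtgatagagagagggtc
C1qc: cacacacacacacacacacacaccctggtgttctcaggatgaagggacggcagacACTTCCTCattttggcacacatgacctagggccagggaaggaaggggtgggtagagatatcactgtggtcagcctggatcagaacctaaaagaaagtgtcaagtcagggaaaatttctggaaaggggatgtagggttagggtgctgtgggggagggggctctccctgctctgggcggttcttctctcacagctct
C3: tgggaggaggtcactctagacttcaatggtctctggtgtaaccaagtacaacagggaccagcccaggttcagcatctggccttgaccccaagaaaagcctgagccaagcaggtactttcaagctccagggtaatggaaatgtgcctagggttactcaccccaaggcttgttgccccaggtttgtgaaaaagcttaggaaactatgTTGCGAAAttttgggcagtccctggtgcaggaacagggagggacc
The motifs were GAGGAAGT, the purine-rich core bound by ETS factors such as PU.1, TTCNNNGAA, bound by STAT factors, and TTGCNNAA, a C/EBP core. C1qc held GAGGAAGT on the opposite strand, starting 195 bases before the transcript start, and C3 held TTGCNNAA 45 bases before it. The C1qb window held none of the 3. Among 32851 upstream windows of the same length, 2.44% held GAGGAAGT, 7.02% TTCNNNGAA and 9.56% TTGCNNAA. A match is a match of letters and not a bound site, and 151 of the 250 bases of the C1qc window lie inside the longer GENCODE model of that gene.

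C1q transcripts were found mainly in macrophages. C1qa stood at 7647 and 7200 CPM in control macrophages and at 7737 and 7251 CPM in injury macrophages. C1qb stood at 7204, 7279, 7205 and 6997 CPM over the 4 libraries, and C1qc at 5768, 5096, 5960 and 6075 CPM. The libraries lay close together for each gene, although they held from 61 to 462 macrophages. Macrophages contained 92.1% of the C1qa UMIs of the kept cells, 91.5% of those of C1qb and 92.0% of those of C1qc. Of 933 macrophages, 926 had at least 1 UMI of all 3 genes and 5 had none of them.

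Against the mean of the other 5 tested types, macrophages had 5 of the 9 genes called higher, which are C1qa, C1qb, C1qc, C3ar1 and C5ar1. A call required an adjusted p under 0.05 in the edgeR quasi-likelihood test (Benjamini-Hochberg adjustment) together with a log2 difference of 2 or more. By the same rule 9.09% of the 7941 genes tested were called higher in macrophages. The filter on low counts can pass a gene through the type where it is high. In each of the other 5 types C3ar1 had 1 to 3 UMIs and C5ar1 had 1 to 7. Their fold changes over other types therefore rest on few counts there. The log2 fold change was 9.35 for C1qa (SE 0.18, edgeR adjusted p = 6.78e-28), 8.94 for C1qb (SE 0.16, adjusted p = 3.82e-28) and 8.96 for C1qc (SE 0.15, adjusted p = 6.9e-29). The SE of an edgeR fold change is here its absolute value over the square root of the F value of the test. The median log2 fold change of the 9 genes in macrophages was 8.94, and that of all genes tested was -0.05. The genes not called went both ways. C3 stood at 2.11 (edgeR adjusted p = 0.0585) and C4b at 1.46, while Serping1 was lower at -3.27 (adjusted p = 9.87e-08) and Cd55 at -4.02 (adjusted p = 2.22e-08).

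**Figure D1:**
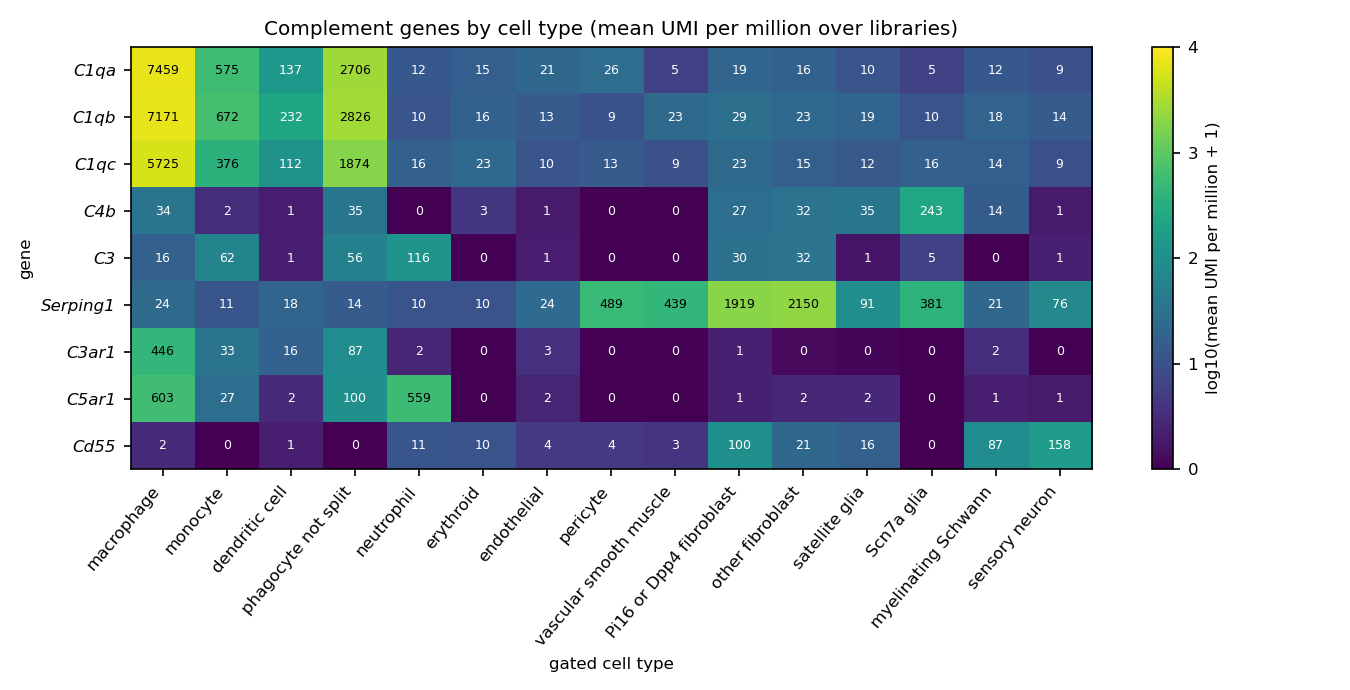
Heat map of the 9 complement genes (rows) over 15 gated cell types (columns). Each cell prints the mean CPM over the libraries with at least 10 cells of the type, and the colour is log10 of that mean plus 1. The C1q rows are brightest in macrophages, the Serping1 row in fibroblasts and the C4b row in Scn7a glia, at 243 CPM.

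Other phagocytes had lower and less even C1q levels. Monocytes, the blood-derived precursors of macrophages, had C1qa at 1123 CPM in control replicate 1, 380 CPM in injury replicate 1 and 223 CPM in injury replicate 2, from 34, 37 and 14 cells. At equal depth (1000 UMIs drawn from each cell), 12.4% of monocytes and 98.7% of macrophages had a C1qa UMI, against 18.5% and 99.4% without thinning. Dendritic cells had the 3 genes at a summed level of 85.0 CPM in control replicate 1, at 0 UMIs in control replicate 2, where 3 UMIs would be 46.4 CPM, at 586 CPM in injury replicate 1 and at 1255 CPM in injury replicate 2. The dendritic cells of both injury libraries lay above those of both control libraries, and the share of all genes that did so was not counted in this type. Of 112 dendritic cells, 20 had a C1qa UMI, 17 a C1qb UMI and 16 a C1qc UMI, so few cells carried these levels. The libraries held 33, 16, 46 and 17 dendritic cells, and a test required at least 20 in each library. Neutrophils had 9.17 to 47.9 CPM of summed C1q, from 1 to 9 UMIs a library.

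The order of the types for C1qa was macrophages, phagocytes that no class marker split (mean 2706 CPM, SD 1262, n = 3 libraries), monocytes (575 CPM, SD 481, n = 3) and dendritic cells (137 CPM, SD 177, n = 4). The first 3 did not overlap between libraries, whereas monocytes and dendritic cells overlapped. Below them, from pericytes at 25.9 CPM to Scn7a glia at 4.90 CPM, every neighbouring pair overlapped.

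Types that should lack C1q held a low share of its transcripts. In the stromal and glial types together (fibroblasts, vascular cells, glia and Schwann cells), the 3 genes summed to 77.9, 47.8, 30.0 and 49.5 CPM over the 4 libraries, which is 0.378, 0.244, 0.144 and 0.244% of the level in the macrophages of the same library. Set against the C1q level over all kept cells, at 3979, 854, 5765 and 3860 CPM, the same sums are 1.96, 5.60, 0.521 and 1.28%. The level over kept cells is not a measure of free RNA, which was not measured. Control replicate 2 had the least C1q over all cells, and injury replicate 1 the most and the lowest stromal and glial level. C1q levels of this size in any other type are not read here as expression by that type, and their source was not tested. The share of the 3 genes differed somewhat between both sources. In macrophages C1qa gave 36.7%, C1qb 34.7% and C1qc 28.6% of the summed UMIs, and in the stromal and glial types C1qa gave 29.3% (95% exact binomial interval 25.7 to 33.1), C1qb 40.9% (37.0 to 44.9) and C1qc 29.8% (26.2 to 33.6). By library, the C1qa share in the stromal and glial types was 34.8% (27.4 to 42.9) and 36.3% (27.9 to 45.4) in control replicate 1 and injury replicate 1, whose intervals hold the macrophage share of that library. It was 22.8% (17.1 to 29.4) in control replicate 2 and 26.1% (19.1 to 34.1) in injury replicate 2, below the macrophage shares of 36.8% and 35.7%. The cause of that difference was not tested, and the intervals cover counting error only. A further 22 barcodes that carried markers of phagocytes and satellite glia together had 7536 CPM of C1q, 36.5% of the macrophage level, and were left out of both types.

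**Figure D2:**
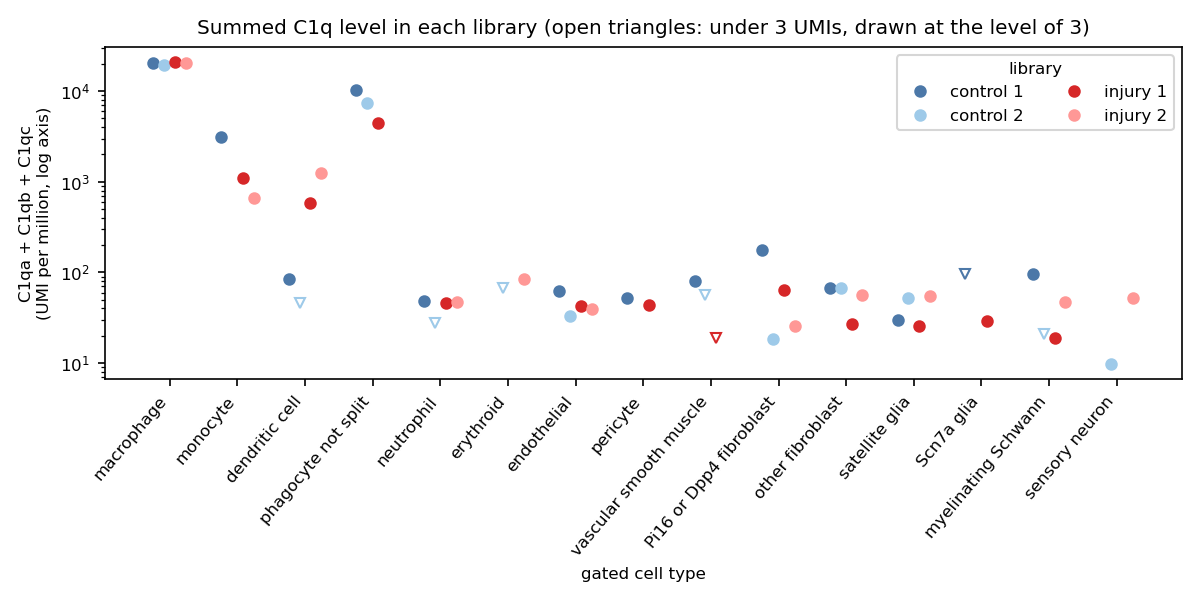
Summed level of C1qa, C1qb and C1qc (CPM, log axis) in each gated type, with 1 point for each library that has at least 10 cells of the type. Open triangles mark fewer than 3 UMIs and are drawn at the level of 3 UMIs. Macrophages stand near 20659 CPM in all 4 libraries, and the stromal and glial types lie at 30.0 to 77.9 CPM as a group.

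Within macrophages, no C1q gene passed the test of injury against control. The groups overlapped for C1qa and C1qb, whereas C1qc was higher in both injury libraries, as were 28.7% of the genes tested there. At the median, a macrophage held 2881, 3172, 4721 and 4856 UMIs in total over the 4 libraries, and 22, 24, 36 and 38 UMIs of C1qa. CPM levels are relative to that total, and UMIs per cell were not tested. The log2 fold change of injury against control was -0.12 for C1qa (SE 0.37, edgeR adjusted p = 0.966), -0.17 for C1qb (SE 0.36, adjusted p = 0.944) and 0.00 for C1qc (SE 0.36, adjusted p = 1.0). Of 7 complement genes tested in macrophages, 0 were called at an adjusted p under 0.05, when 0.0153% of the 6539 genes tested were called. None of the 7 had an unadjusted p under 0.05, which 622 genes had, and DESeq2 called 0 of them. Over the whole library the picture followed the number of macrophages. C1qa stood at 1483, 306, 2129 and 1375 CPM of all cells, and macrophages were 17.6, 4.42, 19.4 and 16.6% of the kept cells. The groups overlapped, and of the 9 genes 0 were called over all cells (edgeR, with 0% of 13165 genes called, 181 at an unadjusted p under 0.05, 1 of the 9 among them, and 0 of the 9 by DESeq2). In such sums over a library alone, fewer cells of a type and less RNA per cell cannot be told apart. For C1qa, control replicate 2 had 4.42% macrophages with a median of 24 UMIs, and control replicate 1 had 17.6% with 22.

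The macrophages fell into cells with a Cd163 or Mrc1 UMI, markers of resident tissue macrophages, cells with neither, and cycling cells. Cycling macrophages numbered 1, 2, 65 and 45. C1qa was present in all 3 classes of the injury libraries, at 8403 and 7724 CPM in Cd163 or Mrc1 cells, 6858 and 7276 CPM in cells with neither and 7164 and 6328 CPM in cycling cells.

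The receptors for C3a and C5a were also concentrated in phagocytes. C3ar1 stood at 591 and 439 CPM in control macrophages and at 387 and 367 CPM in injury macrophages. Both injury libraries lay below both control libraries, as they did for 13.3% of the genes tested in macrophages, but control replicate 1 stood apart from the other 3 and the log2 fold change of -0.60 (SE 0.30) did not pass the test (edgeR adjusted p = 0.569). Without control replicate 1 it was -0.28. The C3ar1 levels are relative to the UMI totals given above, which were larger in injury macrophages, and C3ar1 UMIs per cell were not compared. In cycling macrophages C3ar1 was at 245 and 290 CPM in the injury libraries, in Cd163 or Mrc1 cells at 655, 455, 439 and 391 CPM over the 4 libraries, and in cells with neither at 433, 410, 400 and 444 CPM. Without the cycling cells the log2 fold change of all macrophages was -0.46. Over the other types the log2 fold change was 9.12 (SE 0.19, edgeR adjusted p = 1.25e-26). Monocytes had 33.3 CPM (SD 16.4, n = 3) and neutrophils 1 UMI in 4 libraries.

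C5ar1 stood at 827 and 542 CPM in control and 551 and 492 CPM in injury macrophages, groups that overlapped (log2 fold change -0.55, SE 0.33, edgeR adjusted p = 0.657). It differed from C3ar1 in neutrophils, which also follow C5a. Neutrophils had C5ar1 at 937, 431, 583 and 285 CPM, a range that overlapped that of macrophages. In monocytes it was at 26.5 CPM (SD 23.3, n = 3). Over the other 5 tested types, which do not include neutrophils, macrophages were higher by 9.38 on the log2 scale (SE 0.19, edgeR adjusted p = 2.89e-27).

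C4b encodes the classical pathway component C4, which is cleaved after C1q binds. In satellite glia, which wrap the cell bodies of sensory neurons, C4b stood at 7.55 and 11.9 CPM in control and at 76.6 and 43.4 CPM in injury libraries, from 1, 19, 121 and 42 UMIs. Both injury libraries lay above both control libraries, and the level of control replicate 1 rests on 1 UMI in 45 cells. A C4b UMI was found in 2.22, 4.72, 19.4 and 17.8% of satellite glia in the same order, and at 1000 UMIs a cell in 0.479, 1.25, 6.75 and 4.03%. The log2 fold change was 2.43 (SE 0.44). It had an unadjusted p of 0.000219 and did not pass adjustment over the 8091 genes tested (edgeR adjusted p = 0.354). Of 14 alternatives, 3 gave an edgeR adjusted p under 0.05: without a filter on low counts (4.52e-05), without control replicate 1 (0.00975) and with the replicate number as a block (0.0014). The log2 fold change ranged from 1.96 to 3.16 over the 14, and the adjusted p from 4.52e-05 to 1.0.

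A neighbouring glial class had more C4b. Scn7a glia, a class that shares markers with non-myelinating Schwann cells, had 193 CPM in control replicate 1 (20 cells) and 294 CPM in injury replicate 1 (52 cells), and with 4 and 3 cells the other libraries gave no usable level. In satellite glia with no Scn7a UMI, C4b was at 7.55, 12.1, 75.8 and 42.0 CPM. The 10 markers of Scn7a glia summed to 521, 701, 711 and 773 CPM in satellite glia and to 5103 and 4122 CPM in the Scn7a glia of control replicate 1 and injury replicate 1. In 333 barcodes that carried both marker lists, C4b was at 65.0, 21.5, 102 and 47.0 CPM, and with these cells added the log2 fold change in satellite glia was 2.07. The part of mixed cells in the difference was not tested beyond these values.

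C4b was also found in macrophages at 41.1, 18.7, 30.2 and 45.2 CPM and in other fibroblasts at 28.9, 28.7, 29.2 and 42.9 CPM. In macrophages it was at 52.5, 31.4, 44.7 and 49.4 CPM in cells with Cd163 or Mrc1 and at 10.4, 0, 12.7 and 26.6 CPM in cells with neither. Over the other types C4b was higher by 1.46 in macrophages, 1.42 in satellite glia and 1.09 in other fibroblasts on the log2 scale (edgeR adjusted p = 9.88e-04, 0.00116 and 0.015), all short of the fold required for a call. Pericytes, vascular smooth muscle cells and neutrophils had no C4b UMI. Mouse C4b has a close copy, C4a, so that reads of both may have been exchanged.

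C3, the central component of all 3 pathways, was sparse, with 343 UMIs within the cell limits. Its order was neutrophils at 123, 82.5, 154 and 105 CPM, monocytes at a mean of 62.0 CPM (SD 32.9, n = 3) and phagocytes not split at 55.8 CPM (SD 66.9, n = 3), followed by other fibroblasts, Pi16 or Dpp4 fibroblasts and macrophages, and each neighbouring pair overlapped. Other fibroblasts had 18.2 and 9.26 CPM in control and 43.4 and 58.5 CPM in injury libraries. Both injury libraries lay above both control libraries, and 4.27, 2.57, 12.5 and 15.9% of cells had a C3 UMI. The log2 fold change was 1.95 (SE 0.39), with an unadjusted p of 0.00181 and an edgeR adjusted p of 0.908. Of 12 alternatives, 3 passed: without a filter on low counts (edgeR adjusted p = 3.5e-04), without control replicate 1 (0.0317) and without control replicate 2 (0.0297). The adjusted p ranged up to 1.0 over the alternatives.

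In macrophages 1 library decided the level of C3. It stood at 54.7 and 4.67 CPM in control and at 2.48 and 1.03 CPM in injury libraries, so that both injury libraries were lower, and 40 of the 48 UMIs came from 14 cells of control replicate 1. The gene was too low for the test in macrophages. Without the filter its log2 fold change was -4.20 (edgeR adjusted p = 5.78e-10), and without control replicate 1 it gave no test. Monocytes, which had 62.0 CPM of C3, numbered 34, 7, 37 and 14 in the 4 libraries, and whether they had a part in this level was not tested.

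**Figure D3:**
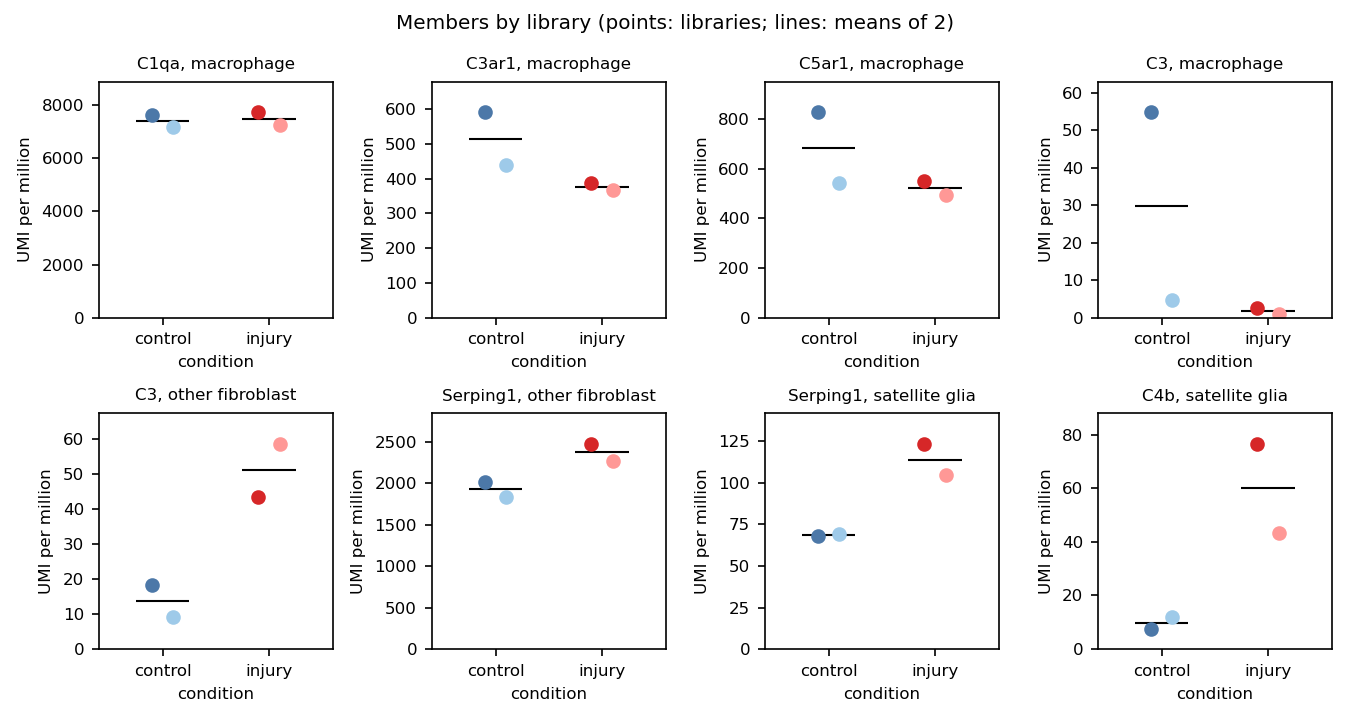
Levels (CPM, axes from 0) of 6 complement genes in the cell type named over each panel, with 1 point a library and a line at the mean of the 2 libraries of a condition. C4b in satellite glia and C3 in other fibroblasts are higher in both injury libraries, at 43.4 to 76.6 and 43.4 to 58.5 CPM, while C1qa in macrophages overlaps.

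Serping1, which encodes the C1 inhibitor, was highest in fibroblasts. It stood at 2014, 1839, 2478 and 2270 CPM in other fibroblasts and at 1984, 1644, 2164 and 1883 CPM in Pi16 or Dpp4 fibroblasts, the class that carries markers of adventitial fibroblasts. Both classes overlapped, and pericytes came next with a mean of 489 CPM (SD 112, n = 2), which did not. A Serping1 UMI was found in 96.6 to 99.0% of other fibroblasts per library. Over the other types the log2 fold change was 4.97 (SE 0.21, edgeR adjusted p = 1.53e-18) in other fibroblasts and 4.66 (SE 0.22, adjusted p = 2.98e-17) in Pi16 or Dpp4 fibroblasts. Other fibroblasts of both injury libraries lay above those of both control libraries, with a log2 fold change of 0.36 (SE 0.28, edgeR adjusted p = 1.0). In satellite glia Serping1 was at 67.9, 69.0, 123 and 104 CPM, and both injury libraries were higher (log2 fold change 0.78, SE 0.26, unadjusted p = 0.0139, edgeR adjusted p = 0.999).

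Across the 2 fibroblast classes, 3 of the 9 genes (C3, Serping1 and Cd55) were called higher over other types in Pi16 or Dpp4 fibroblasts, where 8.02% of genes were called, and 2 (C3 and Serping1) in other fibroblasts, where 8.22% were called. C3 was higher by 3.70 on the log2 scale in other fibroblasts (edgeR adjusted p = 8.87e-05) and by 3.27 in Pi16 or Dpp4 fibroblasts (adjusted p = 0.0137), and the latter call was lost without injury replicate 1 (adjusted p = 0.0702). Like those of C3ar1 and C5ar1 in macrophages, these C3 fold changes rest on few counts in some of the other types. Endothelial cells and satellite glia had 3 C3 UMIs each and myelinating Schwann cells 0. Neutrophils and monocytes, which had higher mean C3 levels than both fibroblast classes, were not among the tested types. Myelinating Schwann cells had 1 of the 9 called higher (Cd55, with 6.27% of genes called). Endothelial cells had 0 called (8.73% of 7941 genes, and 4422 genes at an unadjusted p under 0.05 in either direction), and satellite glia 0 (7.15%, 4106 genes).

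Cd55, the membrane regulator, had its own pattern. Pi16 or Dpp4 fibroblasts had 102, 114, 103 and 81.6 CPM, while other fibroblasts had 23.5, 25.9, 11.7 and 22.0 CPM, so that the classes did not overlap in any library. Myelinating Schwann cells had 64.6, 139, 70.9 and 74.5 CPM, and macrophages 4 UMIs in all. B cells, which were not among the tested types, had 16 Cd55 UMIs in 40 cells, or 154 CPM pooled. Control replicate 1 held 25 of these cells, at 267 CPM, and the other libraries held 3, 7 and 5. At 1000 UMIs a cell, 13.3% of 38 B cells had a Cd55 UMI. This share was 8.48% in Pi16 or Dpp4 fibroblasts, 6.17% in myelinating Schwann cells and 4.87% in sensory neurons. The log2 fold change over other types was 3.09 in Pi16 or Dpp4 fibroblasts (SE 0.25, edgeR adjusted p = 1.12e-11) and 2.82 in myelinating Schwann cells (SE 0.30, adjusted p = 6.42e-09). Mouse Cd55 has a neighbouring copy, Daf2 in these files, with which reads may be shared.

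Most Cd55 transcripts lay in barcodes outside the cell limits. Of 1755 Cd55 UMIs in all barcodes, 71.9% lay outside the limits, against 3.09% of the C1q UMIs. Sensory neurons were therefore also taken over all barcodes by any lead of their marker list, a choice made after the values were seen. This gave 31, 193, 38 and 92 neurons, 257 of the 354 above the upper limits. Neurons with an Mrgprd UMI, the receptor that marks non-peptidergic nociceptors, and no UMI of the injury gene Sprr1a numbered 4, 9, 1 and 2. All 16 had Cd55, at 831 and 766 CPM in the control and 353 and 429 CPM in the injury libraries. Together they held 888 UMIs, which is 73.0% of the Cd55 UMIs of the neurons and 50.6% of those of all barcodes. Neurons with neither gene had 19.2, 43.6, 15.2 and 56.4 CPM, and those with Sprr1a 11.4 and 41.2 CPM in the injury libraries. The Mrgprd neurons were deep, with a median of 65386 UMIs against 19098 in neurons with neither gene, but their CPM levels stood apart as well. The lower level after injury rests on 3 cells and was not tested.

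**Figure D4:**
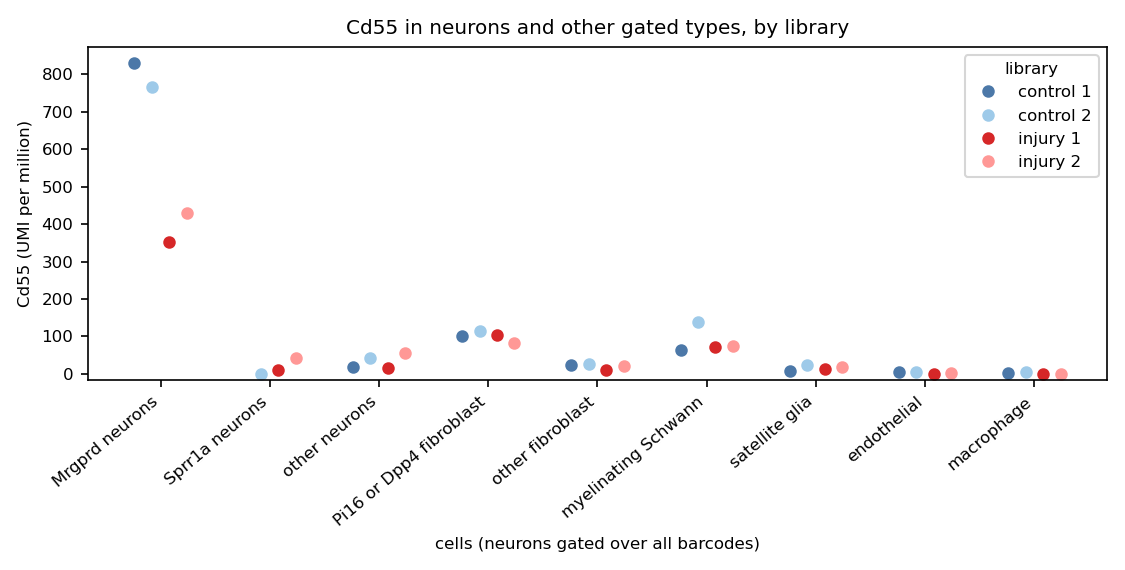
Cd55 level (CPM) by library in 3 neuron classes, gated over all barcodes, and in 6 other types. The Mrgprd neurons stand at 353 to 831 CPM from 1 to 9 cells a library, above the Pi16 or Dpp4 fibroblasts at 81.6 to 114 CPM.

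Injury against control was tested for the 9 genes in 7 comparisons, and no gene was called in the main fit, which did not pair libraries by number. With the replicate number as a block, C4b in satellite glia was called. In the 6 cell types 25 gene tests passed the filter on low counts, and 3 had an unadjusted p under 0.05 (C4b and Serping1 in satellite glia, C3 in other fibroblasts). Tested were 7 genes in macrophages, 1 in endothelial cells, 3 in Pi16 or Dpp4 fibroblasts, 7 in other fibroblasts, 6 in satellite glia and 1 in myelinating Schwann cells. The edgeR test called 0.0124% of all genes in satellite glia, and 0% in endothelial cells, 0% in Pi16 or Dpp4 fibroblasts, 0% in other fibroblasts and 0% in myelinating Schwann cells. At an unadjusted p under 0.05 there were 96, 112, 109, 162 and 44 genes in these types, and DESeq2 called 3, 0, 2, 9 and 2 genes, none of them among the 9. In other fibroblasts 3 of the 7 tested genes were higher in both injury libraries (C3, Serping1, C4b), 3 were lower in both (C1qb, C1qc, Cd55) and 1 overlapped, when 9.73% of all genes tested there were higher in both and 17.9% lower in both. In satellite glia 2 of the 6 were higher in both (C4b, Serping1) and 4 overlapped, when 11.6% of all genes were higher in both. The median log2 fold change was -0.46 over the 7 genes in other fibroblasts, against -0.01 over all genes tested, and -0.15 over the 6 in satellite glia, against 0.02. In other fibroblasts that median is the value of C1qa itself, and in satellite glia it lies between C1qa (0.10) and C1qb (-0.40). C1q levels in these types are not read here as expression, so these medians do not describe the set. The same limit holds for C1qb and C1qc among the genes lower in both.

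Genes with the most similar pattern over the 15 types were found by the Pearson correlation of log2(mean CPM + 1) among 13039 genes, and all points come from the same 4 libraries. For C1qa they were C1qc (r = 0.98), Tmem171 (0.98) and Csf1r (0.97), the last a marker used in the gate. C3ar1 was closest to Emr1 (0.97), also a gate marker, and C5ar1 to Card9 and Alox5 (0.97 and 0.96). Serping1 was closest to Setbp1 (0.95), C3 to Slc7a11 (0.93), Cd55 to Faim2 (0.92) and C4b to Pdlim4 (0.91).

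The other complement genes were read from a list of 43. Of these, 16 could be tested over types. The filter on low counts can pass a gene through a type where it is high, for these 16 as for all genes. In other fibroblasts and in Pi16 or Dpp4 fibroblasts 6 of 16 were called higher in each class, where 8.22 and 8.02% of all genes were. These were the proteases C1ra, C1s1 and C2, the regulators Clu and Vtn, and the collectin Colec12. C1s1 stood at 218, 101, 203 and 151 CPM in other fibroblasts, where C1ra stood at 186, 82.4, 103 and 111 CPM (log2 fold changes over other types 5.93 and 4.12, edgeR adjusted p = 7.58e-21 and 2.99e-17). C1r and C1s are the proteases that the C1 inhibitor blocks. In macrophages 4 of 16 were called higher (9.09% of all genes), properdin (Cfp), Cd93 and the integrin chains Itgam and Itgb2 of complement receptor 3. Endothelial cells had 4 (Cd59a, Cd93, Clu, Susd4), satellite glia 3 (Cd59a, Cd59b, Csmd1) and myelinating Schwann cells 2 (Cd59a, Cd59b). Of all genes, 8.73, 7.15 and 6.27% were called in these types. Cd59a and Cd59b are near copies.

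Cd59a, the inhibitor of the membrane attack complex, stood at 452, 515, 567 and 727 CPM in myelinating Schwann cells and at 242, 212, 350 and 255 CPM in satellite glia. Vtn was at 2872 CPM in control replicate 1 and 3438 CPM in injury replicate 1 in pericytes, which the other libraries hardly held. Fcnb, a ficolin, was at 280, 1513, 338 and 1886 CPM in neutrophils. Between injury and control, edgeR called 0 of 43 tests of these genes in the 6 types, and 4 had an unadjusted p under 0.05. Of the 4, 1 was Clu in satellite glia, at 7.55, 15.1, 27.9 and 31.0 CPM (log2 fold change 1.07, adjusted p = 0.999), and 3 were in macrophages, where Cfp stood at 211, 154, 368 and 504 CPM (log2 fold change 1.07, edgeR adjusted p = 0.308), Itgam at 53.4, 32.7, 120 and 96.6 CPM (1.09, adjusted p = 0.367) and the ficolin Fcna at 13.7, 93.5, 2.48 and 1.03 CPM (-4.42, adjusted p = 0.201). The median log2 fold change of the 10 genes tested there was -0.25, against -0.01 over all genes. C4bp, C7, C8a, C8b, Masp2 and Mbl1 had no UMI in any of the 18 types.

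**Figure D5:**
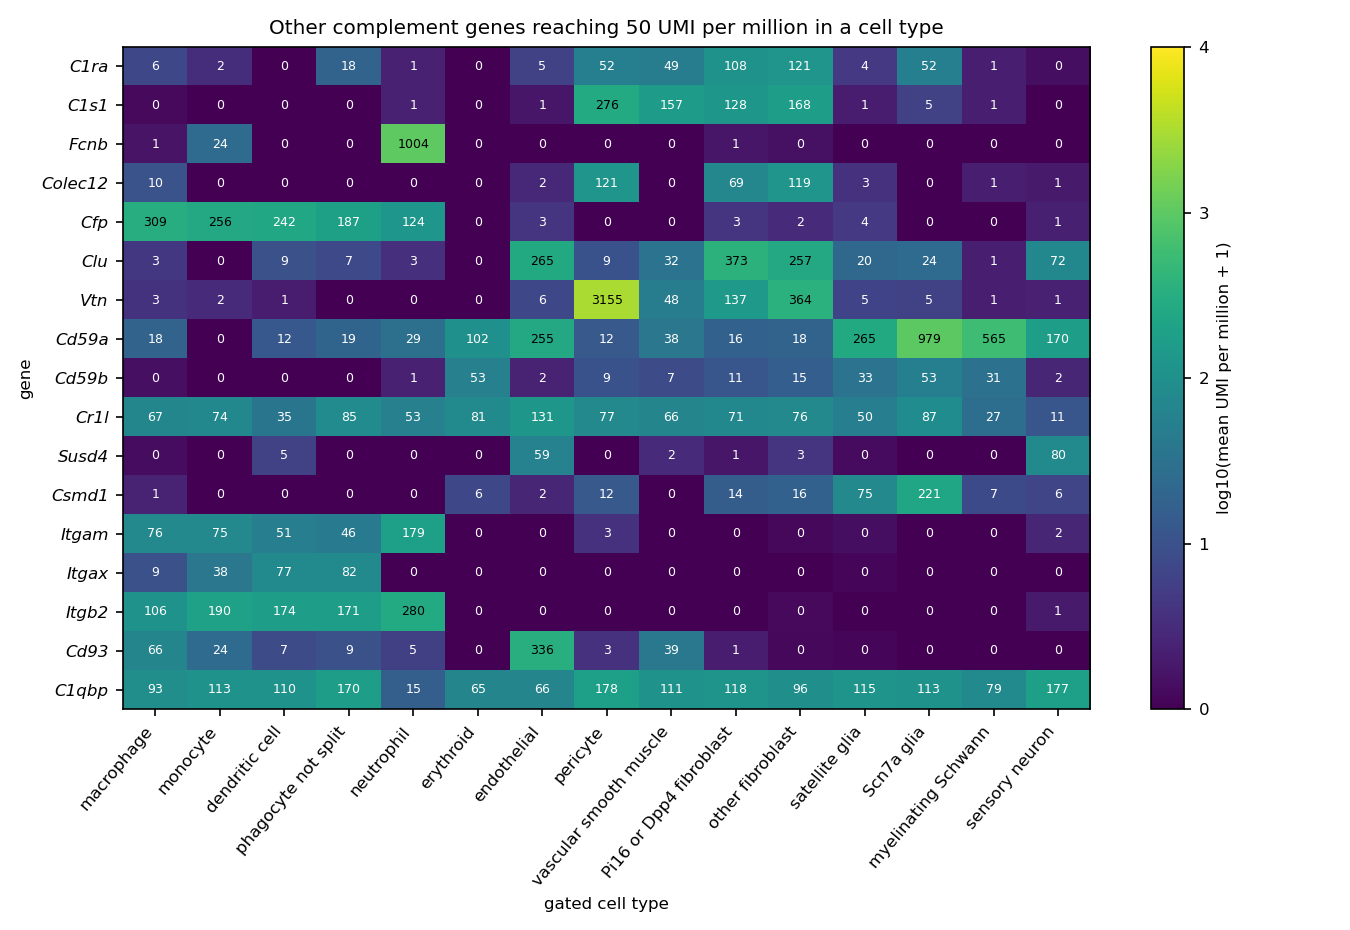
Heat map of 17 other complement genes (rows) that reach a mean of 50 CPM in at least 1 of the 15 gated types (columns). Each cell prints the mean CPM over libraries, and the colour is log10 of that mean plus 1. C1ra, C1s1, Clu and Vtn are bright in fibroblasts and Vtn most in pericytes, at 3155 CPM.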

How the data were processed

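Single cell 3′ libraries were made from dissociated, live-sorted DRG cells. The authors deposited 1 matrix of raw UMI counts a library, made with Cell Ranger on mm10, and these counts were used as deposited. Their later filters and CPM scaling are not in these files. The limits for a cell were 600 to 15000 UMIs, 500 to 4000 genes and a mitochondrial share under 10%. Neurons were gated without the upper limits, since 58 of 104 exceeded them. A barcode was assigned where at least 3 markers of a list were present and that list led the next by 2 times. A further 919 barcodes were mixed and left out in place of a doublet caller, 143 had no lead and 300 had too few markers. Of the complement list, 1 gene is not reported here. The genes and lists were chosen with earlier results of these data known.

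UMIs were summed per library and type (Python 3.11.15, numpy 2.4.6, scipy 1.17.1, pandas 2.3.3, matplotlib 3.10.9). These sums were tested with edgeR 4.0.16 (R 4.3.3, limma 3.58.1), with TMM normalization, filterByExpr, quasi-likelihood tests and Benjamini-Hochberg adjustment over all genes tested. DESeq2 1.42.0 was an alternative. A type was compared with the mean of the other tested types in 1 fit with library as a block. Fold changes are scaled by TMM and can differ from those of the CPM values printed. Their SEs were calculated back from the fold change and the F value, and are not separate estimates. Named were the 9 genes in every type, the called genes of the complement list (among those with the lowest adjusted p of each comparison), and the 3 nearest patterns per gene among genes with a mean of at least 10 CPM. Libraries are the replicates, each a pool of mice, so p-values of injury against control measure the spread between 2 libraries per condition. The p-values of a type over other types measure how type levels vary over the 4 libraries, with no term for condition. Shares of cells carry exact (Clopper-Pearson) 95% intervals, which cover counting error only, and a floor is 3 UMIs. In simulated counts 200 genes were changed by 3 on the log2 scale, taken only from genes above a minimum count, with 1 fixed dispersion. The test recovered 92.0% of them in macrophages (6036 genes tested) and 87.5% in satellite glia (7649 genes). It made 7 false calls in macrophages and 10 in satellite glia. How often it recovers fold changes of the size found for the 9 genes in these libraries was not tested. Gene positions are from GENCODE M21 (GRCm38) and upstream sequences from RefSeq (GRCm38.p6), whose table held 6 of the 9 genes. Alternatives were other size factors, no filter on low counts, DESeq2, a replicate block, each library left out, all barcodes, other marker minimums and leads, thinning to 2000 UMIs, and gates added after the data were seen (macrophages without cycling cells, satellite glia with the mixed glia or without Scn7a UMIs, neurons over all barcodes).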

Additional observations from a re-analysis of the deposited data

Results flagged for a closer look

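In 6 cases both injury libraries lay above both control libraries in 1 cell type and below them in another. Over all pairs of the 6 types, this held for 5 of the 87 combinations of a complement gene and a pair that passed the filter, and for 3.83% of those of all genes. A gene could pass that filter in a pair without passing it in each type alone. C3 in macrophages, C4b in Pi16 or Dpp4 fibroblasts and C1qc in endothelial cells did not pass it within the type. Of the 5, only C1qc between macrophages and other fibroblasts passed in both types. The difference of the log2 fold changes was tested with an interaction term in edgeR in these pairs alone, and 0 of the 5 passed adjustment over all genes. An unadjusted p under 0.05 was found for 4 of the 5, but the pairs were chosen for this pattern, so it is no separate evidence, and 22.9 to 30.0% of all genes on opposite sides in the same pairs had one. The other was C4b between myelinating Schwann cells, with 9 UMIs, and Pi16 or Dpp4 fibroblasts, which was not tested. The difference was 6.21 for C3 (other fibroblasts minus macrophages, SE 1.02, edgeR adjusted p = 0.555), where the macrophage level rests on control replicate 1. It was 3.44 for C4b between satellite glia and Pi16 or Dpp4 fibroblasts (SE 0.74, edgeR adjusted p = 1.0) and 1.39 between other fibroblasts and Pi16 or Dpp4 fibroblasts (SE 0.59, adjusted p = 1.0), from 29 C4b UMIs in the latter class. For C1qc it was 0.57 between macrophages and other fibroblasts (SE 0.53, edgeR adjusted p = 1.0) and 2.01 between endothelial cells and other fibroblasts (SE 0.77, adjusted p = 1.0), from 21 C1qc UMIs in endothelial cells and 63 in other fibroblasts.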

How the results depend on the processing

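Of 54 combinations of the 9 genes with the 6 types, 25 passed the filter on low counts, which limits what the depth of these libraries can show. The number of genes called after injury moved by over 1.5 times under 48 of 90 alternatives. The number of genes called, 1 in macrophages, 1 in satellite glia and 0 elsewhere, rose without a filter on low counts to 185 in macrophages, 15 in endothelial cells, 36 in Pi16 or Dpp4 fibroblasts, 46 in other fibroblasts, 13 in satellite glia and 8 in myelinating Schwann cells. DESeq2 called 15, 2, 9, 3 and 2 genes in macrophages, Pi16 or Dpp4 fibroblasts, other fibroblasts, satellite glia and myelinating Schwann cells and 6 over all cells. Leaving out a library gave 7 to 192 genes in macrophages, 1 to 36 in endothelial cells, 8 to 49 in Pi16 or Dpp4 fibroblasts, 0 to 176 in other fibroblasts, 1 to 13 in satellite glia, 4 to 23 in myelinating Schwann cells and 0 to 25 over all cells. The cause was not tested. In satellite glia other size factors, at least 4 markers or no Scn7a UMI gave 2 genes, and at least 2 markers, any lead or the mixed glia gave 0. Macrophages gave 0 with any lead and without the cycling cells.

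Of the 9 complement genes, the number called after injury was 1 in macrophages (C3), other fibroblasts (C3) and satellite glia (C4b) without the filter, and 0 to 1 with a library left out in macrophages, endothelial cells, other fibroblasts and satellite glia. These calls were C3 in macrophages without control replicate 2, injury replicate 1 or injury replicate 2 (log2 -4.85, -5.16 and -3.90), Serping1 in endothelial cells without control replicate 2 (7.07, with 38 of its 54 UMIs in injury replicate 2), C3 in other fibroblasts without either control library and C4b in satellite glia without control replicate 1. With the replicate number as a block, 285 genes were called in macrophages, 4 in endothelial cells, 11 in other fibroblasts, 14 in satellite glia and 21 in myelinating Schwann cells, and 1 of the 9 (C4b, satellite glia). The paper describes 2 biologically independent experiments but does not state which libraries belong together, and the labels give only a number. Deviations of same-numbered libraries correlated at 0.237 to 0.454 over the comparisons, from 2 pairs. Cell make-up went with the number in part, with 61 and 89 pericytes in the libraries of replicate 1 and 3 and 1 in those of replicate 2. Satellite glia did not go with it, at 45 and 427 cells in replicate 1 and 339 and 185 in replicate 2. Whether the unpaired or the blocked fit matches the design is therefore not known. The block changed no other call among the 9 genes.

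Genes called higher over other types rose without the filter to 1615 in macrophages, 1234 in endothelial cells, 988 in Pi16 or Dpp4 fibroblasts, 1326 in other fibroblasts, 1153 in satellite glia and 767 in myelinating Schwann cells. With a library left out, 0 to 1 of the 9 were called there in satellite glia (C4b, 2.48 without control replicate 2). Of 492 alternative values in all, 416 kept their call or, for counts, stayed within 1.5 times the main value. Among 398 alternative fold changes of the 9 genes after injury, 44 changed sign, in 19 of 34 tests, none of which had passed, and 0 of the 44 had an adjusted p under 0.05. They include C1qa and C1qc in macrophages, which ranged from -0.25 to 0.02 and from -0.12 to 0.18.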
